A study of Homo sapiens with 15 samples.

Results

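The step between the lowest pair of martinostat doses was followed in K562 cells, from 0.15 to 0.25 µM, with untreated cells as the reference level. These were 6 of the 15 libraries of the series, 3 per dose, and the members of the step were the genes whose mRNA differed between them. Of 23711 genes tested, 2911 were called, which is 12.3%. A gene was called when its Benjamini-Hochberg adjusted p in the quasi-likelihood test of edgeR was under 0.05. All cells were K562, a single established human line from a chronic myeloid leukaemia, with the BCR-ABL fusion. Cells of all 5 groups grew in the same serum-containing medium. They received no drug, or martinostat, an inhibitor of histone deacetylases, at 0.15, 0.25, 0.5 or 1 µM for 24 h, with 3 libraries in each group. The labels name no solvent for the untreated cells. Poly(A) RNA was sequenced, and levels are given as CPM, a gene's counts per 1000000 counts of its library after scaling. Fold changes are 0.25 minus 0.15 µM on the log2 scale, with their standard errors (SE). Group levels are mean ± SD of 3 libraries.

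Histone deacetylases remove acetyl groups from the lysines of histones and of many other proteins. An inhibitor such as martinostat lets acetylation build up, and the usual outcome in leukaemia cells is an arrest in G1 with a high level of the cyclin-dependent kinase inhibitor CDKN1A. Entry into S phase is driven by cyclin E and CDK2 and by the E2F factors, which switch on the genes of the replication machinery. K562 cells also hold part of the erythroid programme, run by GATA1, KLF1 and their partners, which act on the genes of heme synthesis and of the globins.

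The libraries of the step held 26212119 to 31141230 counts, within the 23755510 to 32805574 of the whole series. Replicate 3 at 0.25 µM stood apart from its group. On the third principal component, with 5.45% of the variance, it lay at 54.1, beside replicate 3 at 0.5 µM at 58.5, while the other 13 libraries lay at 10.6 or lower. Its TMM factor was 1.284, against 1.109 and 1.067 for the other libraries at 0.25 µM. MALAT1, a nuclear long non-coding RNA, stood at 5608, 5204 and 4858 CPM in the 3 libraries at 0.15 µM and at 13159, 14390.2 and 4340.4 CPM at 0.25 µM, so that this replicate lay below its whole comparison group. The cause was not tested. Counts without it, or without any other library of the step, are given where they moved by more than 1.5 times. When 1 library is left out, its group keeps 2 libraries, and their spread is taken from the fit over all groups. The labels and design text describe the replicates as independent and biological. Of 9 markers of K562 cells, 8 were present in every library, among them GATA1, TAL1, TFRC, HBG1, EPOR, BCR and ABL1, and HBE1, the embryonic epsilon globin, stayed at 0.0818 to 0.745 CPM. The summed level of the 9 was 1880 to 2108 CPM at 0.15 µM and 1428 to 1660 CPM at 0.25 µM.

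From 0.15 to 0.25 µM, 1175 genes rose (4.96% of those tested) and 1736 fell (7.32%). The genes that rose were mostly scarce and moved far, and the genes that fell were mostly abundant and moved less. A scarce gene needs a larger fold change to be called, so these sizes do not compare genes of equal level. The median level over the 6 libraries was 4.85 CPM for genes called higher and 48.8 CPM for genes called lower. Their median log2 fold changes were 1.16 and -0.72, beside 0.02 for all genes tested. Over 2-fold, 1031 genes were called (4.35%), of which 701 rose (2.96% of those tested) and 330 fell (1.39%), and over 4-fold 201 rose and 12 fell. Of the 2146 genes at 100 CPM or more, 54 rose and 421 fell. Of the 7291 genes under 1 CPM, 257 rose and 23 fell. Protein-coding genes made up 949 of the genes that rose and 1638 of those that fell. Long non-coding RNAs made up 172 and 66. The plot of fold change against level shows this asymmetry, as called with TMM scaling. Of the 10124 genes of at least 10 CPM, 3.85% rose and 15.3% fell without overlap between the doses. For a list of genes at that level, these shares are a closer reference than those of all genes.

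**Figure D1:**
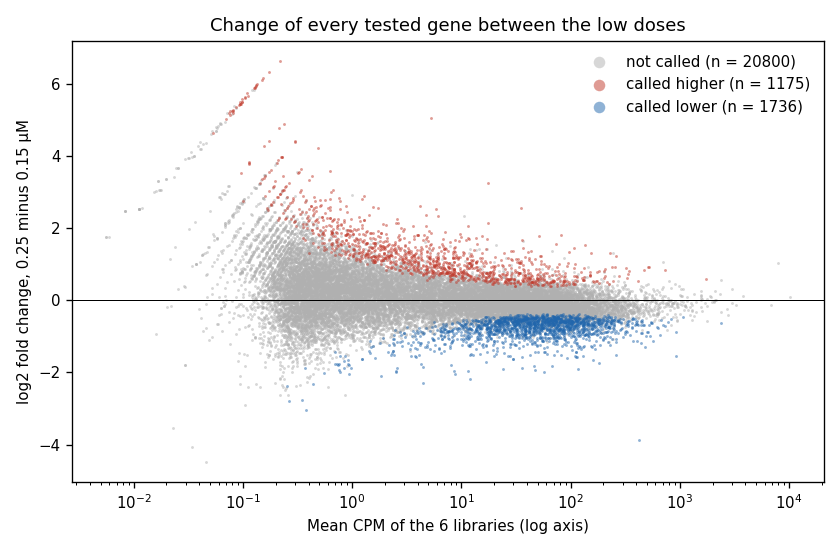
Log2 fold change from 0.15 to 0.25 µM (vertical axis) against the mean CPM of the 6 libraries (horizontal axis, log scale) for the 23711 tested genes. Points are genes, coloured by call with TMM scaling (1175 higher, 1736 lower), and the calls above 100 CPM lie mostly below the zero line.

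The balance of rises and falls depended on how the libraries were scaled. TMM scaling put 40.4% of the calls on the higher side. With RLE factors the count was 1559 higher and 1187 lower (56.8% higher). Plain library totals gave 1581 and 986 (61.6% higher), and TMM factors taken from genes of at least 10 CPM gave 1882 and 1025 (64.7% higher). The median log2 fold change of all genes was 0.02 with TMM and 0.11, 0.19 and 0.18 with the others, so a fold change is relative to a zero that shifts by up to this much. No gene called with TMM changed sign under another scaling. Shifts of this size could hardly bring that about, since the median called changes were 1.16 and -0.72. Under all 4 scalings, 1160 higher and 900 lower genes were called. Without replicate 3 at 0.25 µM, 918 genes were called higher and 1084 lower.

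**Figure D2:**
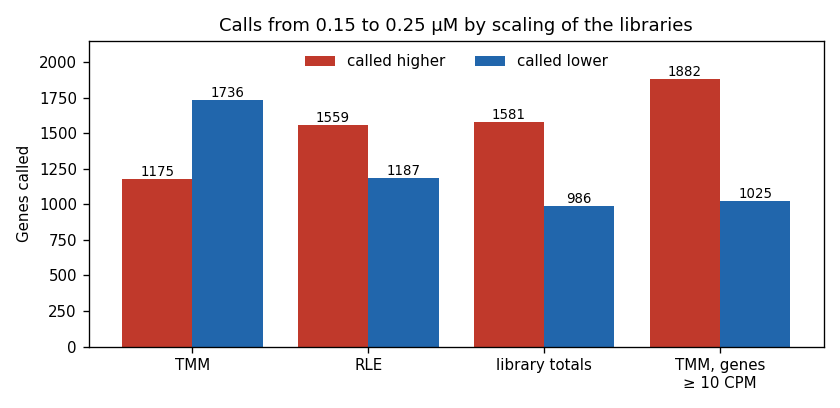
Number of genes called higher and lower from 0.15 to 0.25 µM (bars, from 0) under 4 ways of scaling the libraries. Lower calls outnumber higher calls with TMM (1736 against 1175) and are fewer with the other 3.

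For most called genes the mean moved further from the untreated mean in the step. The untreated mean lay below both dose means for 1009 of the genes that rose (85.9%), beside 52.7% of all genes tested. It lay above both for 1328 of the genes that fell (76.5%), beside 35.9% of all. In the remainder the mean went one way at the lower dose, by however little, and the other way in the step. The untreated mean lay above both doses for 26 genes that rose and below both for 129 that fell, while 140 and 279 genes had an untreated mean between the doses. These counts compare means and were not tested. They include genes that were not called at 0.15 µM against untreated cells, such as E2F1, E2F2 and LAMP2. An untreated mean under 0.1 CPM was found for 436 of the genes that rose and for 0 of those that fell. Genes this scarce passed the filter only through treated libraries. Among protein-coding genes, the untreated mean was under 1 CPM for 57.4% of those that rose, 0.611% of those that fell and 27.2% of those tested. At 0.5 µM the mean was further in the same direction for 922 of the genes that rose (78.5%) and 1270 of those that fell (73.2%). The matching share of all genes was not counted.

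**Figure D3:**
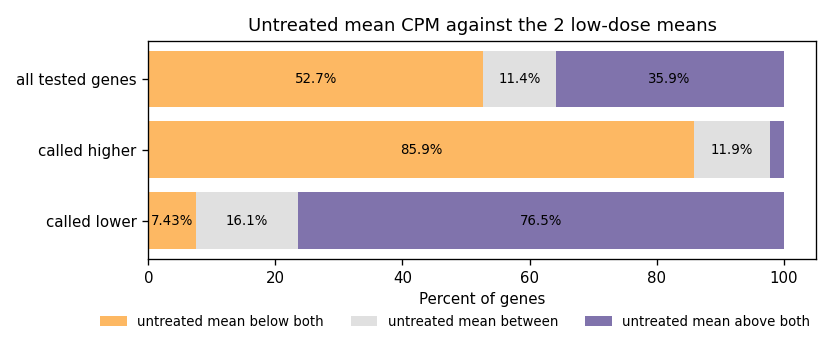
Percent of genes (horizontal axis) whose untreated mean CPM lay below both, between or above the means at 0.15 and 0.25 µM, for all tested genes and for genes called higher or lower. The untreated mean lay below both doses for 85.9% of the genes called higher and above both for 76.5% of those called lower.

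Many drivers of the G1 to S transition fell in the step. In bulk RNA of this kind, fewer cells in a phase and less RNA per cell cannot be told apart. Of 13 tested, 7 fell and none rose (53.8% called, beside 12.3% of all genes), with a median log2 fold change of -0.55. They were CDC25A, the phosphatase that activates CDK2, the factors E2F1 and E2F2, the cyclins CCNE1, CCNE2 and CCND3, and CDK2 itself. MYC (log2 fold change -0.48) and CDK6 (-0.50) did not pass the test. Without replicate 1 at 0.15 µM, 4 of the 13 were called, and over the other libraries left out in turn 5 to 9. CDC25A (ENSG00000164045.12, hg38 chr3:48157146-48188417, minus strand) read 68.4, 78.5 and 78.4 CPM at 0.15 µM and 22.1, 21.2 and 15.6 CPM at 0.25 µM. The groups did not overlap, and the untreated level was 186 ± 10.4 CPM. Its log2 fold change was -1.94 ± 0.26 (Benjamini-Hochberg adjusted p = 0.000264, quasi-likelihood test of edgeR, which gives every adjusted p here).

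E2F1 and E2F2 differed from CDC25A in where the fall took place. E2F1 (ENSG00000101412.13, hg38 chr20:33675477-33686385, minus strand) stood at 64.8, 59.5 and 56.1 CPM without drug, 59.6, 55.9 and 72.4 CPM at 0.15 µM and 27.7, 19.6 and 17.7 CPM at 0.25 µM. The untreated and 0.15 µM libraries overlapped, and all of them lay above the libraries at 0.25 µM. Its log2 fold change was 0.06 ± 0.23 against untreated cells at 0.15 µM (edgeR adjusted p = 0.85, in a comparison with 51.2% of genes called) and -1.53 ± 0.23 in the step (adjusted p = 0.000479). E2F2 read 65.5, 71.2 and 78.4 CPM at 0.15 µM and 25.9, 22.5 and 12.7 CPM at 0.25 µM, with 67 ± 5.59 CPM in untreated cells. The log2 fold change of E2F2 was 0.10 ± 0.26 at 0.15 µM against untreated cells (edgeR adjusted p = 0.78) and -1.82 ± 0.27 in the step (edgeR adjusted p = 0.000519). Whether the dose step and the first dose differed in effect was not tested. PKMYT1, the kinase that holds CDK1 inactive, read 112, 92.6 and 112 CPM and then 36.4, 34.5 and 19.3 CPM, a log2 fold change of -1.81 ± 0.31 (edgeR adjusted p = 0.00172). Antisense exons lie over 31.9% of its exon bases, where the assignment of reads is uncertain.

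Most DNA replication genes fell. Of 33 tested, 24 fell and none rose (72.7% called lower, beside 7.32% of all genes), with a median log2 fold change of -1.01. Over the other scalings 21 to 24 were called lower, and with 1 library of the step left out in turn 20 to 24. The MCM helicase subunits MCM2 to MCM7 all fell, by 1.56 (MCM5), 1.36 (MCM2), 1.24 (MCM4), 1.12 (MCM7), 1.07 (MCM6) and 0.87 (MCM3) on the log2 scale. The loading factors CDT1 (log2 fold change -1.53), CDC6 (-1.11) and ORC1 (-1.05) fell, as did CDC45 (-1.24) and 3 of the 4 GINS subunits. PCNA, the sliding clamp, fell with -1.01, and the polymerase subunits POLE and POLA2 with -1.14 and -1.21. The ribonucleotide reductase subunits RRM1 (-0.29) and RRM2 (-0.70) did not pass the test, nor did POLD1 (-0.90). Antisense exons cover 23.6% of the exon bases of MCM2, and another gene on the same strand covers 16.8% of those of POLA2.

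TYMS, thymidylate synthase, had the lowest adjusted p of these genes. It read 27.3, 26.7 and 24 CPM at 0.15 µM and 7.22, 8.37 and 8.19 CPM at 0.25 µM, from 81.8 ± 6.02 CPM in untreated cells. The log2 fold change was -1.71 ± 0.17 (edgeR adjusted p = 1.54e-05), with antisense exons over 47.9% of its exon bases. MCM10, which helps to activate the helicase, read 50.3, 58.1 and 46.1 CPM and then 19.3, 22.8 and 22.7 CPM, a log2 fold change of -1.26 ± 0.15 (edgeR adjusted p = 6.69e-05). In both genes the doses did not overlap. UNG, the uracil-DNA glycosylase that removes uracil from DNA, read 52.3, 55.7 and 61.8 CPM and then 15.3, 17.7 and 12.9 CPM, with 127 ± 6.03 CPM in untreated cells. UNG had a log2 fold change of -1.89 ± 0.20 (edgeR adjusted p = 2.17e-05).

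Promoters of 4 genes that fell are shown because E2F factors bind short sites near the starts of replication genes. They were chosen because they hold a match, and the same stretch of MCM2 and of CDC6, which also fell, held 0. The sequences are the 250 bases before the most upstream start that the RefSeq promoter table (GRCh38.p14) gives each gene, 5′ to 3′ on the strand of the gene. Capitals mark matches to TTTCCCGC, TTTCGCGC, TTTGCCGC or TTTGGCGC on either strand. MCM6 lies at chr2:135876444-135876693, minus strand, and its 4 matches overlap in pairs. MCM7 lies at chr7:100101398-100101647, minus strand, CDC25A at chr3:48188418-48188667, minus strand and E2F1 at chr20:33686386-33686635, minus strand.
MCM6: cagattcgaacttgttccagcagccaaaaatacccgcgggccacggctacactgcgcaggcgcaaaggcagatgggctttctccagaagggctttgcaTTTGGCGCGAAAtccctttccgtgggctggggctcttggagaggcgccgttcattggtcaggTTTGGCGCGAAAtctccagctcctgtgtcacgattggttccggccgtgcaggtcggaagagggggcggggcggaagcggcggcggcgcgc
MCM7: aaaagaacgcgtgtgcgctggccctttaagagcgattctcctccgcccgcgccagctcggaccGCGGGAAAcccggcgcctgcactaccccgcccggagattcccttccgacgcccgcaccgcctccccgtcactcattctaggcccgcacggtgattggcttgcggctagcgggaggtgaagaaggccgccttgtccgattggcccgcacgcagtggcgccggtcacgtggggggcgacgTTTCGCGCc
CDC25A: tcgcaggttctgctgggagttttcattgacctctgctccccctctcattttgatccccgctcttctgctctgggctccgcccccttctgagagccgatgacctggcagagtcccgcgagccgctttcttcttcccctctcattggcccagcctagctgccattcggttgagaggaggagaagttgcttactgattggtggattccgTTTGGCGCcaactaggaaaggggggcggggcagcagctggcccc
E2F1: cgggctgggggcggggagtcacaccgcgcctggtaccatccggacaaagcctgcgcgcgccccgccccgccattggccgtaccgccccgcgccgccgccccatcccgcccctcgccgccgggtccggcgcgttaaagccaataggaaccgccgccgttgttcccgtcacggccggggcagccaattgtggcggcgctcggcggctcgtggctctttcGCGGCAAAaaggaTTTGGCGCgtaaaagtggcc

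Of the 24 replication genes that fell, 22 had a promoter in the table, and 17 of these (77.3%) held such a match within 250 bases before or 50 after the start. The same held for 2 of 22 mitosis genes (9.09%), for 117 of 1362 protein-coding genes called lower (8.59%) for 5.1% of the 12460 tested protein-coding genes with a promoter and for 3.31% of all 35116 promoters. A different element, TTTGAA on either strand, the core of the site known as CHR, was found in 14 of the 22 mitosis promoters (63.6%), in 0 of the 22 replication promoters, in 10.4% of those of tested protein-coding genes and in 15.2% of all promoters. Of the genes called higher, 34 of 733 with a promoter held the E2F letters (4.64%). Only 77.2% of the genes called higher and 79.7% of the tested protein-coding genes had a promoter in the table, under the 80% set for a comparison, so a comparison with either is void and their shares are descriptions. The replication set held only members that fell, and the mitosis set all members tested. Replication members that did not fall were not counted apart, so whether the letters go with the fall was not tested. A match is a stretch of letters and was not tested as a binding site.

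Mitosis genes moved less. Of 26 tested, 2 fell and none rose (7.69% called lower, beside 7.32% of all genes), with a median log2 fold change of -0.33. These genes were abundant, with a median untreated level of 157 CPM. Of all genes of at least 10 CPM, 15.3% fell without overlap between the doses, a larger share than in this list. MAD2L1, a spindle checkpoint protein, read 89, 79.9 and 72.3 CPM and then 36.7, 46.4 and 29.8 CPM, a log2 fold change of -1.10 ± 0.22 (edgeR adjusted p = 0.00314). KIF23, a kinesin of cytokinesis, read 37.6, 39.5 and 35.4 CPM and then 25.9, 29.3 and 28.2 CPM, with -0.43 ± 0.14 (edgeR adjusted p = 0.0482). The call of KIF23 was lost without any single library of the step, with an adjusted p of up to 0.141, and under all other scalings. The mitotic kinases PLK1 (-0.74) and AURKA (-0.45), CCNB1 (-0.32), MKI67 (-0.25) and TOP2A (-0.03) did not pass the test. Between 0.15 and 0.25 µM the replication list thus held 72.7% called genes and the mitosis list 7.69%, a difference that was not tested.

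Of 5 CDK inhibitors tested, CDKN1A and CDKN1C rose and none fell (40.0% called higher, beside 4.96% of all genes). The median log2 fold change was 0.40. CDKN1A (ENSG00000124762.14, hg38 chr6:36676460-36687337, plus strand), which encodes p21, read 2.86, 3.82 and 5.01 CPM without drug, 64.7, 57.2 and 63 CPM at 0.15 µM and 144, 145 and 92.3 CPM at 0.25 µM. The doses did not overlap, and the lowest library at 0.25 µM was replicate 3. The log2 fold change was 1.04 ± 0.20 in the step (edgeR adjusted p = 0.00204). The level went on to 341 ± 49.7 CPM at 0.5 µM and 356 ± 51.2 CPM at 1 µM. CDKN1C, or p57, read 54.2, 38.4 and 63.2 CPM and then 114, 91.6 and 69.3 CPM, a log2 fold change of 0.82 ± 0.25 (edgeR adjusted p = 0.0413). Its call was lost in 4 of the 6 fits without 1 library, those without replicate 1 or 2 at either dose, with the highest adjusted p of 0.169 without replicate 2 at 0.15 µM. It reached 855 ± 266 CPM at 0.5 µM. CDKN1B (-0.07), CDKN2C (-0.43) and CDKN2D (0.40) did not pass the test.

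The 250 bases before the RefSeq start of CDKN1A in the promoter table (chr6:36678464-36678713, plus strand) are shown for the CDK inhibitor with the lowest adjusted p. Capitals mark GGGCGG on either strand, the GC box that SP factors bind. It was found here 4 times on the gene's strand, the last 2 overlapping, in 66.4% of the promoters of tested protein-coding genes and in 45.0% of all promoters. The stretch lies inside the span that GENCODE gives the gene, whose earliest start is further upstream.
CDKN1A: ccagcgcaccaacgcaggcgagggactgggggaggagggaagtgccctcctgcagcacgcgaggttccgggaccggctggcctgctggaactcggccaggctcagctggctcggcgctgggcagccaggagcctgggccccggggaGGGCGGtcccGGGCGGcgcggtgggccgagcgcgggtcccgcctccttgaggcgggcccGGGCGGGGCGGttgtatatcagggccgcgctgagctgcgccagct

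**Figure D4:**
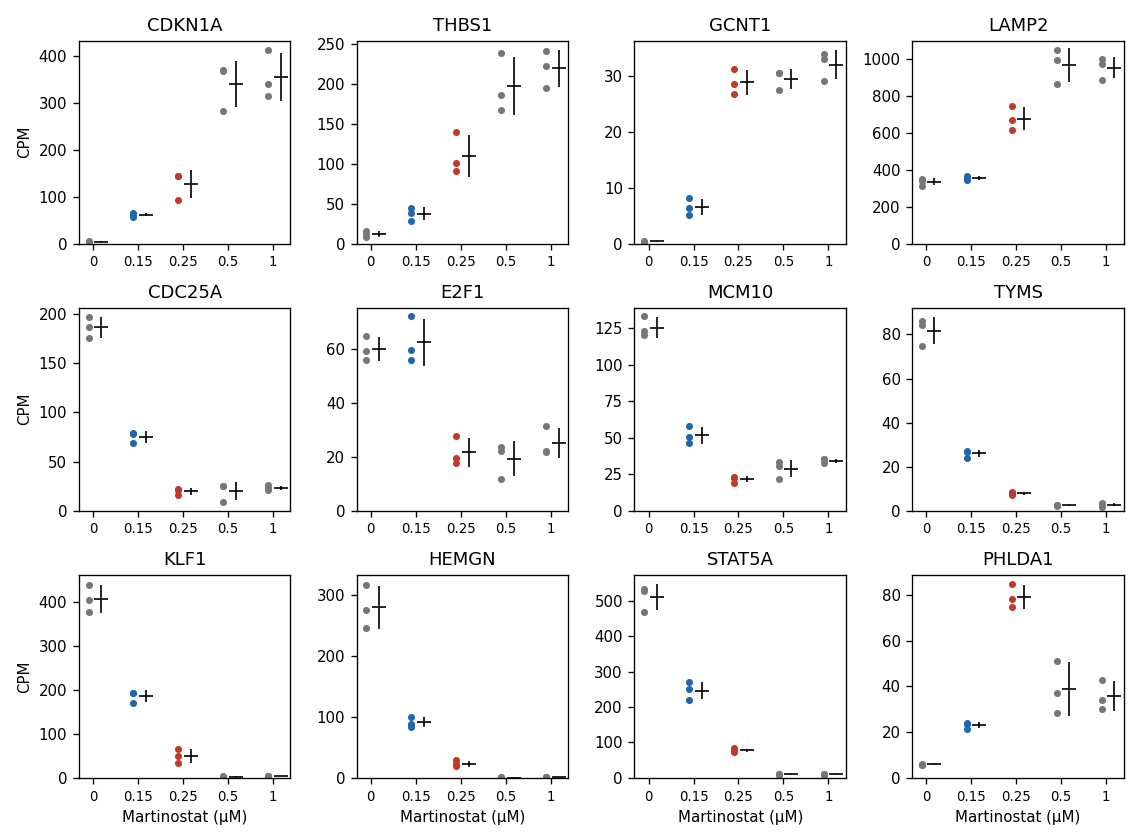
CPM of 12 genes (vertical axes, linear and starting at 0) in each library by martinostat dose (horizontal axis, µM, with 0 for untreated cells). Points are libraries, with 0.15 µM in blue and 0.25 µM in red, and black marks show mean ± SD of 3 libraries. CDKN1A, THBS1, GCNT1, LAMP2 and PHLDA1 were higher at 0.25 than at 0.15 µM in all libraries, and the other 7 genes were lower.

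Erythroid transcription factors fell as well. Of 10 tested, 7 fell and none rose (70.0% called lower, beside 7.32% of all genes), with a median log2 fold change of -0.79. With 1 library left out in turn, 6 or 7 were called lower. Those that fell were HEMGN, KLF1, GFI1B, LMO2, GATA1, LDB1 and ZFPM1. HEMGN (ENSG00000136929.13, hg38 chr9:97926791-97944856, minus strand), hemogen, a nuclear factor of blood precursors, read 88.9, 100.4 and 83.9 CPM at 0.15 µM and 18.6, 22 and 28.8 CPM at 0.25 µM, from 279 ± 35.4 CPM in untreated cells. The groups did not overlap. The log2 fold change was -1.98 ± 0.18 (edgeR adjusted p = 4.32e-06), and at 0.5 µM 0.6 ± 0.0903 CPM remained. KLF1 (ENSG00000105610.6, hg38 chr19:12884422-12887201, minus strand), the erythroid factor that switches on adult globin, read 194, 169 and 192 CPM and then 65, 49.3 and 33.7 CPM, with 406 ± 31.2 CPM in untreated cells. KLF1 thus had a log2 fold change of -1.91 ± 0.20 (edgeR adjusted p = 2.17e-05).

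LMO2, the bridge of the GATA1 and TAL1 complex, read 72.2, 71.2 and 65.3 CPM and then 23.3, 24 and 30.1 CPM, a log2 fold change of -1.43 ± 0.13 (edgeR adjusted p = 5.86e-06). GATA1 itself read 308, 286 and 344 CPM and then 204, 168 and 146 CPM, a log2 fold change of -0.86 ± 0.15 (edgeR adjusted p = 0.00138). GATA1 stood at 328 ± 5.92 CPM without drug and at 313 ± 29.3 CPM at the lower dose (log2 fold change -0.07 ± 0.15, edgeR adjusted p = 0.734). TAL1 (121, 127 and 119 CPM at 0.15 µM, 113, 129 and 152 CPM at 0.25 µM) and NFE2 (-0.19) did not pass the test, nor did MYB (-0.29).

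Globin genes and genes of heme synthesis and iron supply, on which these factors act, had similar medians and differed in the share called. Whether the lists differed was not tested. Of 9 globins tested, none passed the test in either direction, with a median log2 fold change of -0.47. HBZ, the embryonic zeta globin, read 347, 288 and 362 CPM and then 185, 216 and 68.3 CPM, which did not overlap, with a log2 fold change of -1.09 ± 0.46 (edgeR adjusted p = 0.151). HBD read 8.19, 8.05 and 8.43 CPM and then 5.46, 5.19 and 5.36 CPM (-0.62 ± 0.21, edgeR adjusted p = 0.0586). HBG1 and HBG2, near-identical copies that share reads, had -0.11 and 0.02. Of 15 genes of heme synthesis and iron supply, 6 fell and 1 rose (46.7% called, beside 12.3% of all genes), with a median of -0.41. Without replicate 3 at 0.15 µM 2 of the 15 were called lower, without replicate 2 at 0.25 µM 3, and without each of the others 4. SLC25A38, the mitochondrial glycine carrier, read 31.8, 37.9 and 45.8 CPM and then 24.7, 20.6 and 21.2 CPM (-0.80 ± 0.15, edgeR adjusted p = 0.00187). ALAS2 (-0.85), the erythroid first enzyme, fell with UROD (-0.74), CPOX (-0.50) and PPOX (-0.41), while ALAS1 (0.73), the form used in all tissues, rose.

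Genes of ribosome production formed another group that fell. Of 24 ribosome biogenesis genes, 14 fell and none rose (58.3% called lower, beside 7.32% of all genes). The median log2 fold change was -0.71. Without replicate 3 at 0.15 µM 8 were called lower, and with each other library left out 11 or 12. UBTF, the factor of RNA polymerase I, read 168, 188 and 218 CPM and then 105, 93 and 92.7 CPM, from 279 ± 17 CPM in untreated cells. UBTF had a log2 fold change of -0.98 ± 0.13 (edgeR adjusted p = 0.000135). DKC1, dyskerin, the pseudouridine synthase of ribosomal RNA, read 183, 207 and 237 CPM and then 106, 109 and 122 CPM (-0.90 ± 0.15, edgeR adjusted p = 0.000812). BOP1 (-1.23), RRP12 (-1.06), PES1 (-0.96) and NCL (-0.89), the nucleolin gene, also fell. NPM1 (-0.11) did not pass the test. TERT, the catalytic subunit of telomerase, with which dyskerin also works, had the lowest log2 fold change of all genes that met the naming rule. It read 20.5, 18.3 and 20.3 CPM and then 4.95, 4.04 and 4.01 CPM, from 41 ± 1.12 CPM in untreated cells, a log2 fold change of -2.18 ± 0.20 (edgeR adjusted p = 4.32e-06).

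Of 77 mitochondrial ribosome genes, 9 fell and none rose (11.7% called lower, beside 7.32% of all genes), with a median log2 fold change of -0.36. Of all 10124 genes of at least 10 CPM, 15.3% fell without overlap between the doses. The share of 11.7% was thus no excess over genes of that level. Under the other scalings 4 or 5 were called lower, and with 1 library left out 3 to 9. The fewest were found without replicate 2 at 0.25 µM (3), then without replicate 1 at 0.15 µM and replicate 3 at 0.25 µM (4 each) and replicate 3 at 0.15 µM (5). MRPL23 read 18.1, 7.94 and 11.9 CPM and then 4.24, 4.08 and 2.63 CPM (-1.80 ± 0.31, edgeR adjusted p = 0.00123). MRPL20 read 96.8, 79.9 and 105 CPM and then 65.7, 55.7 and 50 CPM (-0.72 ± 0.15, edgeR adjusted p = 0.00426). Neither overlapped between the doses. Of 14 heat shock protein genes, 5 fell and none rose (35.7% called, beside 12.3% of all genes), with a median of -0.53. Without replicate 3 at 0.15 µM 2 were called, and without replicate 2 at 0.15 µM or replicate 3 at 0.25 µM 3. HSPH1, a co-chaperone of the HSP70 family, read 155, 165 and 167 CPM and then 57.1, 64.8 and 58.5 CPM, from 399 ± 32.2 CPM in untreated cells. HSPH1 had a log2 fold change of -1.43 ± 0.19 (edgeR adjusted p = 0.000171). The mitochondrial chaperonin genes HSPE1 and HSPD1 fell together, HSPE1 from 42.7, 38.2 and 41.5 CPM to 25.3, 22 and 22.4 CPM (-0.81 ± 0.16, edgeR adjusted p = 0.00239) and HSPD1 with -0.62. HSPB1 (-0.78) fell too, as did HSPA1B (-0.66), a near-identical copy of HSPA1A (-0.45, not called) whose own level is therefore uncertain.

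Among the JAK kinases and STAT factors, STAT5A had the lowest log2 fold change. BCR-ABL activates the STAT5 factors, which are needed for the growth of these leukaemia cells. STAT5A (ENSG00000126561.18, hg38 chr17:42287547-42311943, plus strand) read 220.4, 250.0 and 270.0 CPM at 0.15 µM and 76.4, 74.2 and 83.1 CPM at 0.25 µM, from 510.2 ± 36.5 CPM in untreated cells. The groups did not overlap, and the log2 fold change was -1.66 ± 0.15 (edgeR adjusted p = 4.32e-06). STAT5B (-0.53), STAT6 (-0.82) and STAT3 (-0.46) also fell and 2 members rose, JAK3 among them. The 11 JAK kinases and STAT factors had a median of -0.35, and 54.5% were called, beside 12.3% of all genes. Under the other scalings 2 rose and 1 or 2 fell, STAT5A among them. With 1 library left out, 0 to 2 were called higher and 1 to 3 lower, with 2 lower without replicate 2 or 3 at 0.15 µM and 1 without replicate 2 at 0.25 µM. Of those called higher, 1 was called without replicate 1 or 3 at 0.15 µM or replicate 2 at 0.25 µM, and 0 without replicate 2 at 0.15 µM. JAK3, the kinase of lymphoid cytokine receptors, read 6.29, 5.26 and 5.23 CPM and then 10.3, 9.23 and 9.54 CPM, from 0.164, 0.077 and 0.039 CPM in untreated cells, with 0.79 ± 0.20 (edgeR adjusted p = 0.0138). Its call was lost without replicate 2 at 0.15 µM (adjusted p = 0.0602).

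Of 8 STAT5 target genes tested, SOCS2 rose and PIM3 and BCL2L1 fell (37.5% called, beside 12.3% of all genes). The median log2 fold change was -0.08. The median turned to 0.01, 0.09 and 0.08 under the other scalings, 2 of which called 2 higher. SOCS2, a feedback inhibitor of cytokine signalling, read 293, 249.9 and 201 CPM and then 358, 430.3 and 519.9 CPM (0.81 ± 0.21, edgeR adjusted p = 0.0153). Its call was lost without replicate 2 or 3 at 0.15 µM or replicate 3 at 0.25 µM, with an adjusted p of up to 0.0708. Of these targets, 1 was called lower without replicate 1 at 0.15 µM and 0 without replicate 3 at either dose, so that without replicate 3 at 0.15 µM none was called in either direction. Of 11 genes of the BCR-ABL kinase and its adaptors, PIK3R1 rose and BCR fell (18.2% called, beside 12.3% of all genes). Among all genes of at least 10 CPM, 3.85% rose and 15.3% fell without overlap between the doses, so 18.2% was no clear excess. The median of the list, -0.11, turned to 0.04 under 2 of the other scalings. BCR, which also drives the fusion gene, read 431, 409.9 and 376 CPM and then 279, 312 and 225 CPM, with 443 ± 37.7 CPM in untreated cells. Its log2 fold change was -0.58 ± 0.18 (edgeR adjusted p = 0.0441), and the call was lost under every other scaling and in 5 of the 6 fits without 1 library, all but that without replicate 2 at 0.25 µM. PIK3R1, the regulatory subunit of PI3K, read 31.7, 38 and 37 CPM and then 46.7, 49.8 and 50 CPM (0.46 ± 0.14, edgeR adjusted p = 0.0392), a call lost in 5 of the 6 fits, all but that without replicate 3 at 0.15 µM. ABL1 (-0.40) did not pass the test.

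The genes of the enzymes that the drug inhibits came next. Of 11 histone deacetylase genes, HDAC7, HDAC2 and HDAC4 fell and none rose (27.3% called lower, beside 7.32% of all genes). Of all genes of at least 10 CPM, 15.3% fell without overlap between the doses. The median log2 fold change of the list, -0.02, turned to between 0.07 and 0.13 under the other scalings. HDAC4 lost its call under every other scaling and without any 1 library other than replicate 2 at 0.25 µM, while HDAC7 and HDAC2 kept theirs. HDAC7, a class IIa enzyme, read 95.8, 96.6 and 112 CPM and then 44.9, 42 and 51.9 CPM, from 140.2 ± 6.4 CPM in untreated cells. HDAC7 had a log2 fold change of -1.13 ± 0.17 (edgeR adjusted p = 0.000295), with antisense exons over 11.2% of its exon bases. HDAC2, a class I enzyme, read 243, 232 and 234 CPM and then 164, 167 and 144 CPM (-0.58 ± 0.13, edgeR adjusted p = 0.00738). HDAC1 (0.17), HDAC3 (-0.25) and HDAC6 (0.06) did not pass the test. Of 13 replication-independent histone genes, H2AZ1 fell and none rose (7.69% called lower, near the 7.32% of all genes). Their median of -0.10 turned to 0.05 under 2 other scalings. Here 1 member was called higher under each other scaling and without replicate 3 at 0.25 µM, and 2 were called lower with library totals and without replicate 2 at 0.25 µM. H2AZ1 read 292, 253 and 251 CPM and then 157, 189.8 and 125 CPM (-0.76 ± 0.18, edgeR adjusted p = 0.0104), and H2AX read 285, 223 and 263 CPM and then 153, 177 and 94.4 CPM (-0.86 ± 0.28, edgeR adjusted p = 0.0509).

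AP-1 factors divided. Of 14 tested, FOS and MAF rose and FOSL1, MAFK and MAFG fell (35.7% called, beside 12.3% of all genes), with a median of -0.46. Under the other scalings 3 or 4 rose and 3 fell. FOSL1, or FRA-1, read 18.3, 17 and 19.3 CPM and then 4.78, 4.87 and 4.46 CPM, from 28.3 ± 2.44 CPM in untreated cells. FOSL1 had a log2 fold change of -1.95 ± 0.25 (edgeR adjusted p = 0.000116). FOS read 27.7, 24 and 18.3 CPM and then 44.3, 51.6 and 37.9 CPM, from 3.56, 4.6 and 4.15 CPM in untreated cells, with 0.93 ± 0.16 (edgeR adjusted p = 0.0012). Both genes were separated between the doses and moved in opposite directions within a family whose members pair with JUN proteins.

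Polyamine genes moved in both directions. Of 13 tested, 3 fell and 2 rose (38.5% called, beside 12.3% of all genes). Their median of -0.11 turned to 0.04 under 2 other scalings. The genes that fell make polyamines: SRM, spermidine synthase, AMD1 (-0.59), which supplies its aminopropyl donor, and SMS (-0.54), spermine synthase. Those that rose were SAT1, the acetyltransferase that starts polyamine breakdown and export, and AZIN2 (0.99), an antizyme inhibitor. SRM read 264, 224 and 239 CPM and then 95.4, 119 and 68.9 CPM, from 734 ± 84.3 CPM in untreated cells, a log2 fold change of -1.36 ± 0.25 (edgeR adjusted p = 0.0022). SAT1 read 31.6, 29 and 35 CPM and then 70.4, 66.4 and 88 CPM, from 16 ± 3.3 CPM in untreated cells, with 1.23 ± 0.24 (edgeR adjusted p = 0.00251). At 0.5 µM SAT1 stood at 277 ± 125 CPM. ODC1 (-0.07), the first enzyme of the pathway, did not pass the test.

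Of 23 cholesterol genes, 3 fell, CYP51A1 and SREBF2 among them, and none rose (13.0% called, near the 12.3% of all genes), with a median of -0.29, and 1 was called under the other scalings and without replicate 2 at 0.15 µM or replicate 3 at 0.25 µM. SREBF2, the factor that drives the pathway, read 275, 261 and 252 CPM and then 181, 200.4 and 184 CPM (-0.48 ± 0.14, edgeR adjusted p = 0.027), a call lost under every other scaling and in 4 of the 6 fits without 1 library (up to 0.0901, without replicate 1 at 0.15 µM). Of CYP51A1's exon bases, 68.2% lie under another gene on the same strand, so its value is uncertain. Of 18 genes of the integrated and ER stress responses, HERPUD1 rose and TRIB3 (-0.76), ATF4 and PSAT1 (-0.57) fell. The share called was 22.2%, beside 12.3% of all genes, and the median was 0.11. Under the other scalings 3 rose and 1 or 2 fell, and 2 rose without replicate 1 at 0.15 µM or replicate 3 at 0.25 µM. None was called lower without replicate 1 or 3 at 0.15 µM, and 1 without replicate 2 or 3 at 0.25 µM. ATF4, the central factor of the integrated stress response, read 273, 256 and 293 CPM and then 202, 128 and 177 CPM (-0.70 ± 0.19, edgeR adjusted p = 0.0205). Its call was lost without replicate 1 or 3 at 0.15 µM or replicate 2 at 0.25 µM (up to 0.101) and under 2 other scalings. HERPUD1, a gene of ER protein disposal, read 59.2, 64.7 and 57.6 CPM and then 87.8, 100.2 and 82.7 CPM (0.58 ± 0.13, edgeR adjusted p = 0.00624).

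With TMM scaling, the share of autophagy and lysosome genes called stayed near the background. Of 27 autophagy genes, ATG4A and NBR1 (0.52) rose and ATG4D fell (11.1% called, beside 12.3% of all genes), with a median of 0.08, and 4 to 6 rose under the other scalings. Without replicate 3 at 0.15 µM 4 were called higher, and without replicate 1 at 0.15 µM 1. The proteases ATG4A and ATG4D process the LC3 family. ATG4A read 27.3, 32.7 and 30.7 CPM and then 41.3, 48.2 and 41.8 CPM (0.53 ± 0.12, edgeR adjusted p = 0.00719). ATG4D read 45.2, 34.5 and 40.3 CPM and then 27.6, 28.1 and 19.6 CPM (-0.67 ± 0.16, edgeR adjusted p = 0.0104), a call lost without replicate 1 at 0.15 µM or replicate 3 at 0.25 µM (up to 0.0581). Of 20 lysosome genes, 2 rose, LAMP2 among them, and none fell (10.0% called), with a median of -0.02. The median turned to 0.08, 0.15 and 0.14 with RLE, library totals and the restricted TMM, where 3, 6 and 6 rose. With these scalings 1559, 1581 and 1882 of all 23711 genes rose. Both lists then held a larger share of rises than all genes, a difference that was not tested. Without replicate 3 at 0.25 µM 4 were called higher, and 1 without replicate 3 at 0.15 µM or replicate 2 at 0.25 µM. LAMP2 (ENSG00000005893.16, hg38 chrX:120426148-120469365, minus strand), a membrane protein of the lysosome, read 314, 341 and 350.2 CPM without drug, 356, 367 and 342 CPM at 0.15 µM and 616, 744 and 672 CPM at 0.25 µM. It had not passed the test at the lower dose (log2 fold change 0.08 ± 0.14, edgeR adjusted p = 0.643) and its log2 fold change in the step was 0.93 ± 0.14 (edgeR adjusted p = 0.000383).

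In the BCL2 family, 2 of 15 genes rose and 2 fell (26.7% called, beside 12.3% of all genes), with a median of -0.21. Among all genes of at least 10 CPM, 3.85% rose and 15.3% fell without overlap between the doses. BMF and BIK (1.00), which encode death-promoting proteins with only a BH3 domain, rose. BCL2L1, which encodes the death-blocking BCL-XL, and BOK (-0.80) fell. BMF read 17.9, 15.4 and 14.5 CPM and then 34, 38.8 and 50.2 CPM, from 2.62, 3.05 and 2.74 CPM in untreated cells. Its log2 fold change was 1.36 ± 0.15 (edgeR adjusted p = 2.48e-05), and the doses did not overlap. BMF kept its call without each library in turn, while it was the only member called higher without any 1 library other than replicate 3 at 0.25 µM, so that BIK lost its call there. Of the members called lower, 1 was called without replicate 1 at 0.15 µM or replicate 2 at 0.25 µM, and 0 without replicate 3 at either dose. Under 2 of the other scalings 1 was called lower. BCL2L1 read 132 ± 4.42 CPM without drug, 251, 232 and 279 CPM at 0.15 µM and 195, 181 and 148 CPM at 0.25 µM, so that the lower dose lay above both. Its log2 fold change was -0.54 ± 0.14 in the step (edgeR adjusted p = 0.018), a call lost without replicate 3 at either dose (up to 0.0805). Antisense exons lie over 41.3% of its exon bases. MCL1 (0.37), BCL2 (-0.32), BAX (-0.39) and BBC3 (-0.13) did not pass the test.

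Next came lists of other lineages. Of 15 megakaryocyte and platelet genes listed, 9 passed the filter and were tested. THBS1 and ITGB3 rose and none fell (22.2% called, beside 12.3% of all genes), with a median of 0.41. THBS1, thrombospondin, read 44.7, 38.2 and 28.7 CPM and then 90.4, 140.0 and 100.3 CPM, from 15.3, 11.9 and 8.34 CPM in untreated cells (1.57 ± 0.22, edgeR adjusted p = 0.00023). ITGB3, the integrin beta chain of platelets, read 5.2, 5.08 and 5.09 CPM and then 10.8, 10.8 and 13.7 CPM (1.20 ± 0.29, edgeR adjusted p = 0.0118). Another gene shares 33.2% of its exon bases on the same strand. ITGA2B (-0.44), its partner chain, did not pass the test.

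Of 25 neuronal and synaptic genes, STMN2, NEFM (1.30) and PCLO rose and none fell (12.0% called, near the 12.3% of all genes), with a median of 0.31, and 1 to 3 rose with 1 library left out, the fewest without replicate 3 at 0.15 µM. STMN2, a neuronal regulator of microtubules, had 0 counts in the untreated libraries and read 0.176, 0.494 and 0.791 CPM and then 2.54, 1.65 and 1.7 CPM (2.00 ± 0.40, edgeR adjusted p = 0.00378). PCLO, a scaffold of the presynapse, read 12.8, 12.8 and 9.26 CPM and then 15.7, 22.4 and 19.9 CPM (0.73 ± 0.20, edgeR adjusted p = 0.0202), a call lost without replicate 3 at 0.15 µM or replicate 2 at 0.25 µM (up to 0.0948). Of 17 interferon-stimulated genes, OASL rose and OAS3 fell (11.8% called, near the 12.3% of all genes). Their median was 0.22, and 2 rose under 2 of the other scalings. OASL had 0 counts in the untreated libraries and read 1.48, 0.706 and 0.826 CPM and then 4.54, 2.36 and 2.5 CPM (1.64 ± 0.39, edgeR adjusted p = 0.0113). Its call was lost without replicate 2 or 3 at 0.15 µM or replicate 1 at 0.25 µM (up to 0.0583). OAS3 read 23.6, 29.1 and 23.1 CPM and then 14.9, 17.6 and 19.4 CPM (-0.55 ± 0.17, edgeR adjusted p = 0.0385), a call lost under every other scaling and in 5 of the 6 fits, all but that without replicate 3 at 0.25 µM. Of 14 genes of MHC class I antigen presentation none was called in the step, with a median of -0.07 that turned to between 0.02 and 0.08 under the other scalings. With library totals and without replicate 2 at 0.15 µM 1 was called higher, and without replicate 1 at 0.25 µM 1 lower. HLA-F read 0.035, 0.318 and 0 CPM and then 0.542, 0.394 and 0.626 CPM (2.12 ± 0.77, edgeR adjusted p = 0.0853), and TAPBP 62.5, 62.4 and 71.3 CPM and then 59, 44.1 and 42.9 CPM (-0.43 ± 0.16, edgeR adjusted p = 0.0914).

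Markers of other cell types were counted. In bulk RNA, a change in expression and a change in the cells present cannot be told apart. Of 7 myeloid markers tested, CSF1R rose and ITGAM fell (28.6% called, beside 12.3% of all genes), with a median of 0.10. CSF1R, the receptor of macrophage growth factor, read 4.57, 4.84 and 6.02 CPM and then 11, 11.7 and 7.26 CPM (0.95 ± 0.29, edgeR adjusted p = 0.0379), a call lost in 5 of the 6 fits, all but that without replicate 3 at 0.25 µM, in which 2 myeloid markers were called higher and 2 lower. ITGAM read 30.6, 33.9 and 35.2 CPM and then 20.6, 19.5 and 16.8 CPM (-0.81 ± 0.19, edgeR adjusted p = 0.00829). The summed myeloid level was 160 to 176 CPM at 0.15 µM and 138 to 149 CPM at 0.25 µM. Of 6 epithelial markers, CDH1 (1.87) and CLDN4 rose and EPCAM fell, with a median of 0.36 and summed levels of 3480 to 4904 and 3423 to 6641 CPM, nearly all from keratin genes. CLDN4 and EPCAM kept their calls without each library in turn, while CDH1 lost its own without any 1 library other than replicate 2 at 0.25 µM. CLDN4 read 1.23, 1.02 and 1.69 CPM and then 4.03, 2.97 and 3.51 CPM (1.41 ± 0.25, edgeR adjusted p = 0.00131). EPCAM read 47.6, 44.9 and 46.1 CPM and then 33.3, 31.1 and 32 CPM (-0.53 ± 0.12, edgeR adjusted p = 0.00755), and its call was lost under 2 other scalings.

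Of 7 lymphoid markers tested none was called, with a median of -0.31 that turned to 0.06 without replicate 3 at 0.25 µM. Their summed level was 23.6 to 35.3 CPM at 0.15 µM and 20.5 to 23.1 CPM at 0.25 µM, with MS4A1 at 0 counts in all 6 libraries. Untreated cells had 5.79 to 9.28 CPM. CD3E read 3.41, 3 and 3.75 CPM and then 1.66, 2.54 and 2.18 CPM (-0.67 ± 0.34, edgeR adjusted p = 0.219), and CD3D 14.6, 12.3 and 18 CPM and then 8.17, 7.16 and 13.3 CPM (-0.64 ± 0.33, edgeR adjusted p = 0.228). Of 4 fibroblast markers tested none was called, with a median of 0.30. The summed levels were 277 to 366 CPM at 0.15 µM and 275 to 378 CPM at 0.25 µM, nearly all from COL1A1. Untreated cells had 21.9 to 25.6 CPM. PDGFRB read 5.1, 4.7 and 2.82 CPM and then 5.83, 6.37 and 6.33 CPM (0.56 ± 0.34, edgeR adjusted p = 0.33), and DCN 0.141, 0.212 and 0.069 CPM and then 0.305, 0.143 and 0.426 CPM (1.06 ± 0.82, edgeR adjusted p = 0.45). Whether rarer cells added to any result was not tested.

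**Figure D5:**
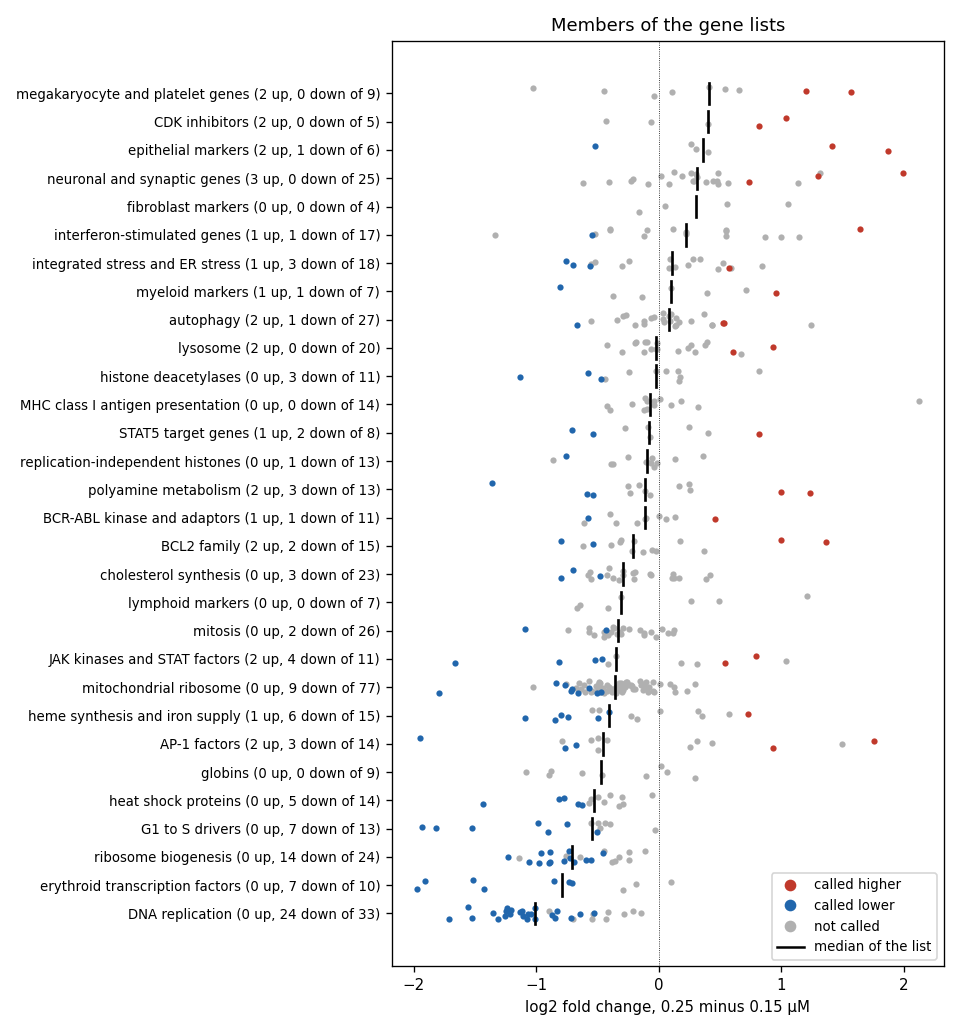
Log2 fold change from 0.15 to 0.25 µM (horizontal axis) of every tested member of 30 gene lists (vertical axis, ordered by median). Points are genes, red if called higher, blue if called lower and grey if not called, black bars are list medians, and DNA replication has the lowest median (-1.01) with 24 of 33 members called lower.

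Among the called protein-coding genes of at least 10 CPM without overlap, the 10 lowest log2 fold changes belonged mostly to cell cycle, blood and signalling genes. Of these, TERT, HEMGN, FOSL1, CDC25A, KLF1, UNG, E2F2 and PKMYT1 are given above. The other two were TNFRSF8 and CBFA2T3. TNFRSF8, which encodes the receptor CD30, read 36.4, 34.7 and 41.8 CPM and then 11.6, 11.3 and 7.41 CPM, from 63 ± 0.928 CPM in untreated cells (-1.90 ± 0.22, edgeR adjusted p = 3.38e-05). CBFA2T3, or ETO2, a corepressor of the GATA1 and TAL1 complex, stood at 188, 173 and 213 CPM without drug, 274, 256 and 311 CPM at 0.15 µM and 91.9, 83.8 and 77.6 CPM at 0.25 µM. It was above the untreated level at the lower dose (log2 fold change 0.55 ± 0.15, edgeR adjusted p = 0.00571) and below it at the higher one (-1.18 ± 0.16, edgeR adjusted p = 2.77e-06, in a comparison with 62.3% of genes called). The step itself measured -1.73 ± 0.16 (edgeR adjusted p = 4.68e-06), and at 0.5 µM 2.85 ± 0.312 CPM remained.

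The 10 highest log2 fold changes came mostly from genes that untreated cells hardly express. GCNT1 (ENSG00000187210.14, hg38 chr9:76419850-76651203, plus strand), a glycosyltransferase that branches O-glycans, read 0.45, 0.348 and 0.352 CPM without drug, 5.17, 6.36 and 8.12 CPM at 0.15 µM and 26.8, 31.2 and 28.5 CPM at 0.25 µM. The log2 fold change was 2.14 ± 0.17 (edgeR adjusted p = 1.50e-06). At 0.5 and 1 µM it stood at 29.5 ± 1.78 and 32 ± 2.59 CPM, close to its level at 0.25 µM. ZCCHC12 read 34.4, 37.7 and 36 CPM and then 125, 156 and 97.6 CPM, from 0.082, 0 and 0.235 CPM (1.81 ± 0.21, edgeR adjusted p = 4.18e-05). JCAD, a gene of endothelial junctions, read 7.45, 6.78 and 6.61 CPM and then 24.7, 29 and 18.4 CPM (1.79 ± 0.19, edgeR adjusted p = 2.17e-05), and KDR, the VEGF receptor, 5.1, 6.04 and 4.71 CPM and then 11.9, 14.6 and 24 CPM (1.68 ± 0.26, edgeR adjusted p = 0.00047). Untreated cells had 0.082, 0.116 and 0.235 CPM of JCAD and 0, 0.077 and 0.078 CPM of KDR.

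The receptor genes EPHA1 and F2RL1 also rose. EPHA1, an ephrin receptor kinase, read 6.19, 5.68 and 4.23 CPM and then 15.7, 17.4 and 20.2 CPM (1.72 ± 0.24, edgeR adjusted p = 0.000225). F2RL1, a receptor activated by proteases, read 5.62, 5.19 and 5.85 CPM and then 16.2, 18.9 and 18.6 CPM (1.69 ± 0.19, edgeR adjusted p = 3.18e-05), with antisense exons over 10.4% of its exon bases. PLIN5, which coats lipid droplets, read 7.66, 5.97 and 10.5 CPM and then 30.4, 22.4 and 25.4 CPM (1.70 ± 0.26, edgeR adjusted p = 0.000519), with 21.7% of its exon bases under another gene on the same strand, and reached 275 ± 61.6 CPM at 0.5 µM. ERRFI1, an inhibitor of the EGF receptor, read 17.5, 19.9 and 14.3 CPM and then 43.7, 53.6 and 65.5 CPM (1.65 ± 0.16, edgeR adjusted p = 1.00e-05).

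PHLDA1 and EIF3CL stood apart from the others of this group. PHLDA1, which is induced by growth factor signalling, peaked at 0.25 µM: it read 24.1, 23.6 and 21.5 CPM at 0.15 µM, 74.6, 78.1 and 84.7 CPM at 0.25 µM, 28.2, 36.9 and 51.2 CPM at 0.5 µM and 30.3, 34.1 and 42.9 CPM at 1 µM. The step measured 1.78 ± 0.18 (edgeR adjusted p = 1.68e-05). EIF3CL had the highest log2 fold change, 3.25 ± 0.86 (edgeR adjusted p = 0.0305), on 3.76, 2.47 and 3.89 CPM at 0.15 µM and 61.5, 30.2 and 4.63 CPM at 0.25 µM. It rests on replicates 1 and 2 at 0.25 µM, and its call was lost in 5 of the 6 fits without 1 library, all but that without replicate 3 at 0.25 µM. EIF3CL shares reads with its near-identical copy EIF3C, so that its level is uncertain.

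A few genes of at least 10 CPM moved back toward or past their untreated level. Over all genes tested, the 3 libraries at 0.25 µM lay wholly above those at 0.15 µM for 14.1% and wholly below for 16.4%. Of 372 genes called higher with at least 10 CPM and no overlap between the doses, 15 had an untreated mean at or above that at 0.25 µM. ACSL3, a ligase that activates long-chain fatty acids, read 236, 282 and 276 CPM without drug, 148, 185 and 142 CPM at 0.15 µM and 208, 269 and 255 CPM at 0.25 µM. The log2 fold change was -0.74 ± 0.16 at the lower dose (edgeR adjusted p = 0.000583) and 0.62 ± 0.16 in the step (edgeR adjusted p = 0.0136), a call lost without replicate 1 at 0.15 µM or replicate 2 at 0.25 µM (up to 0.0654). It went on to 655 ± 44.9 CPM at 0.5 µM. FAM200A (9.42, 9.6 and 6.71 CPM and then 10.4, 13.4 and 18.6 CPM), DBT (23.2, 21.6 and 19.7 and then 25.7, 28.9 and 42.3 CPM), a subunit of the branched-chain ketoacid dehydrogenase, and COQ10B (10.2, 10.9 and 7.92 and then 13.6, 12.6 and 17.2 CPM), a coenzyme Q binding protein, had log2 fold changes of 0.72 ± 0.22, 0.59 ± 0.19 and 0.58 ± 0.18 (edgeR adjusted p = 0.0379, 0.049 and 0.0378). The call of each was lost in 5 of the 6 fits without 1 library, with the highest adjusted p without replicate 3 at 0.25 µM (0.175, 0.258 and 0.151).

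Of 1518 genes called lower under the same conditions, 105 had an untreated mean at or below that at 0.25 µM. FEV, an ETS factor of serotonin neurons, read 7.03, 7.42 and 10.3 CPM without drug, 73, 59.7 and 77 CPM at 0.15 µM and 33.7, 41.2 and 28.8 CPM at 0.25 µM. It was raised at the lower dose (log2 fold change 3.08 ± 0.24, edgeR adjusted p = 4.64e-09), fell in the step (-1.02 ± 0.22, edgeR adjusted p = 0.00519) and stood at 4.23 ± 1.45 CPM at 0.5 µM. AEBP1 read 30.5 ± 1.76 CPM without drug, 66.3, 71.2 and 84.4 CPM and then 42.1, 40.2 and 27.4 CPM (-1.02 ± 0.17, edgeR adjusted p = 0.00103). LINGO3 read 21.8, 16.2 and 26.5 CPM and then 10.8, 10.9 and 5.86 CPM (-1.23 ± 0.33, edgeR adjusted p = 0.0228), and GIPC3 21.3, 22.6 and 28.6 CPM and then 16.4, 11.1 and 8.71 CPM (-1.0 ± 0.27, edgeR adjusted p = 0.022). The calls of both were lost in 3 of the 6 fits, those of LINGO3 without replicate 1 or 3 at 0.15 µM or replicate 3 at 0.25 µM and those of GIPC3 without replicate 3 at 0.15 µM or replicate 2 or 3 at 0.25 µM, up to 0.101 and 0.103.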

How the data were processed

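Poly(A) RNA of K562 cells was sequenced in 15 libraries, and the 6 at 0.15 and 0.25 µM martinostat were compared. Groups and replicate numbers came from the labels. Per the study's methods and processing notes, reads were trimmed with Trim Galore 0.6.10, aligned to hg38 with HISAT2 2.2.1, handled with SAMtools 1.21 and counted per GENCODE gene with featureCounts 1.5.3. The strand setting of the counting is not given in the sources used here. The deposited count table held raw counts of 60649 genes, and 0 of its columns lacked a sample. The deposited FPKM values, made by the authors from these counts, used the genomic span of the gene as its length and the library total as depth, and served only as an alternative.

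The raw counts were fitted with edgeR 4.0.16 under R 4.3.3. After filterByExpr, 23711 genes were tested in 1 fit over all 15 libraries by group, with TMM scaling and the robust quasi-likelihood F test. Calls required a Benjamini-Hochberg adjusted p under 0.05. The residual degrees of freedom were 10 and the biological coefficient of variation 0.228. All pairs of libraries within a group differed by more than counting noise (chi-square over its degrees of freedom 5.85 or more). Symbols were found for 99.8% of identifiers, and positions and exon overlaps came from a later GENCODE release on hg38. Alternatives used limma 3.58.1 and DESeq2 1.42.0, other scalings and filters, and fits without single libraries. The test was tried on simulated data.

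Named genes were chosen by rule. Among protein-coding genes called in the step with at least 10 CPM over the 6 libraries and no overlap between the doses, they were the 10 highest and the 10 lowest log2 fold changes. To these came the 4 highest with an untreated mean at or above 0.25 µM and the 4 lowest with one at or below it. In each of 30 gene lists, the 2 members with the lowest adjusted p were added. Other list members are named with their value only, and a few members are counted but not reported here. The step, the lists and the rule were chosen with earlier results of these data known, so they give no independent support. Lists are described by counts and medians, with no set test.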

Additional observations from a re-analysis of the deposited data

How the results depend on the processing

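Of 75 named genes called, 52 lost their call in none of the alternatives, 43 of them tested in all 18 and 9 in all but the stricter filter, which asks 10 counts of each library. None of the 75 changed direction in any. The number called was 2911 in the main analysis and fell to 1866 when only the 6 libraries of the step were fitted. Genes called higher (1175) became 1882 with TMM restricted to genes whose mean reached 10 CPM and 2286 with DESeq2. Genes called lower (1736) became 986 with library totals, 1025 with the same TMM, 964 with the 6 libraries alone and 1093 with limma on log2(FPKM + 0.1). Genes over 2-fold (1031) became 373 when at least 10 counts were required in every library, 87 on log2(FPKM + 1) and 442 on log2(FPKM + 0.1), the last pair being scales that shrink the changes of low genes. With 1 library left out, 1704 to 2484 genes were called, 659 to 997 higher, 969 to 1487 lower and 686 to 1027 over 2-fold. Of the lists' medians, those of histone deacetylases, STAT5 targets, BCR-ABL adaptors, polyamine genes, histones, lysosome and MHC class I genes changed sign with scaling. Between 0.15 and 0.25 µM equal replicate numbers did not deviate together (r of the deviations from the group means -0.165, -0.0187 and -0.271 for replicates 1 to 3), and no library correlated best with its own number. With replicate 1 at 0.25 µM, r was 0.498 for replicate 3 and -0.502 for replicate 2 at 0.15 µM. Whether the libraries share a factor that does not follow their numbers was not tested. Replicate 3 at 0.25 and at 0.5 µM did lie together on the third principal component. A replicate block called 2896 genes (1124 higher, 1772 lower), of which 2718 were shared. Chosen after the data were seen, a fit without replicate 3 at 0.25 and 0.5 µM called 3713 genes (1589 higher, 2124 lower). Other causes of these shifts were not tested. Depth limits what can be said of genes under 1 CPM, where 1 count is a large part of the level.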

Other observations

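The following 8 protein-coding genes were chosen after their values were seen. Among called genes without overlap between the doses that are not described above, they had the 4 largest falls and the 4 largest rises in mean CPM. ENO1, the glycolytic enolase, read 2625, 2620.2 and 3526 CPM at 0.15 µM and 2054, 2090.2 and 1494 CPM at 0.25 µM (log2 fold change -0.64 ± 0.20, edgeR adjusted p = 0.0429). FASN, fatty acid synthase, read 1379, 1202 and 1527 CPM and then 523, 579 and 304 CPM (-1.55 ± 0.27, edgeR adjusted p = 0.00146). HK1, a hexokinase, read 674, 807 and 1152 CPM and then 506, 481 and 351 CPM (-0.98 ± 0.22, edgeR adjusted p = 0.00666), and FLNC, filamin C, which links actin filaments, 784, 761 and 820.1 CPM and then 380.0, 418 and 288 CPM (-1.12 ± 0.21, edgeR adjusted p = 0.00187). Upward, VIM, vimentin, read 1449, 1387 and 1392 CPM and then 1858, 2366 and 2088 CPM (0.58 ± 0.16, edgeR adjusted p = 0.0249), with antisense exons over 24.6% of its exon bases. SPTAN1, a spectrin, read 346, 369 and 382 CPM and then 713, 809 and 538 CPM (0.91 ± 0.19, edgeR adjusted p = 0.00431). TXNIP, the thioredoxin-interacting protein, read 344, 336 and 329 CPM and then 581, 556 and 651 CPM (0.83 ± 0.17, edgeR adjusted p = 0.00376). BTG1, an antiproliferative gene, read 162, 148 and 155 CPM and then 347, 393 and 352 CPM (1.23 ± 0.14, edgeR adjusted p = 2.84e-05) and stood at 178, 196 and 204 CPM at 0.5 µM.

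Of 303 long non-coding RNAs of at least 10 CPM, 15 rose (4.95%) and 18 fell (5.94%) without overlap between the doses, beside 3.85% and 15.3% of all 10124 genes of that level. LINC00958 read 103, 112 and 109.8 CPM without drug, 130.0, 132 and 133 CPM at 0.15 µM and 312, 346 and 325 CPM at 0.25 µM (1.31 ± 0.13, edgeR adjusted p = 6.62e-06). MIR142HG, the host of a blood microRNA, read 64.2, 53.1 and 77.2 CPM and then 36, 27.7 and 24.4 CPM (-1.14 ± 0.19, edgeR adjusted p = 0.00103). ENSG00000281181 was called lower, on 107, 90.6 and 2202 CPM at 0.15 µM and 43.8, 64.7 and 55.2 CPM at 0.25 µM, and the size of that change rests on replicate 3 at 0.15 µM.

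Of the 925 protein-coding genes called higher without overlap, 150 had 0 counts in all untreated libraries. Such genes passed the filter only through treated libraries, and their share among all tested genes was not counted. ALPG, a germ cell alkaline phosphatase, read 3.8, 3.39 and 5.54 CPM and then 15.2, 17.4 and 12.6 CPM, and 66.8, 68.4 and 58.4 CPM at 0.5 µM (1.83 ± 0.19 in the step, edgeR adjusted p = 2.48e-05). DNER, a neuronal Notch ligand, read 5.13, 5.68 and 2.75 CPM and then 8.47, 10.6 and 9.01 CPM (1.05 ± 0.23, edgeR adjusted p = 0.00755). HLA-DOA, a chain of an MHC class II chaperone, read 4.22, 3.04 and 4.13 CPM and then 11.7, 11.7 and 7.19 CPM (1.43 ± 0.23, edgeR adjusted p = 0.00103).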
